A study of Salmo salar with 57 samples.

Results

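The comparison concerns Atlantic salmon fed a diet with the green microalga Chlorella vulgaris (CV, array titles with the letter F) against salmon fed a diet with the baker's yeast Saccharomyces cerevisiae (SC, letter E). The members were chosen by the letter in the title, which gave 20 of the 57 arrays of the series, 10 CV fish and 10 SC fish, with 1 array per fish. Both diets held soybean meal, and fish meal, soybean meal and microbial ingredient were in equal amounts in the 2 diets. Among the ingredients, the kind of microbe was what differed. By the study's chemical analysis the CV diet held more starch than the SC diet. Non-vaccinated post-smolts were kept in seawater and fed for 4 weeks, and RNA was taken from the distal intestine. 10 fish fed fish meal without soybean meal (FM) and 7 fish fed soybean meal without a microbe (SBM, after the study had left out a tank of this diet) are set beside them below. Fish came from 3 tanks per diet, and the labels do not name the tank, so fish were treated as independent and p-values measure the spread between fish. Each label carries 4 histology scores (lamina propria, epithelium, atrophy and oedema). The sum of the 4 scores was 0 in 8 of the 10 CV fish, 1 in CV fish 4 and 7 in CV fish 7. In SC fish it was 1.5 in fish 1 and 10 and 6 to 8 in the other 8 fish. These sums are a description of the fish and were not tested.

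The distal intestine of salmon absorbs nutrients across a brush border and takes up intact protein into the large vacuoles of its enterocytes, where lysosomal enzymes digest it. Soybean meal is known to cause an enteritis in this segment, with shortened folds, loss of the vacuoles, a widened lamina propria and infiltrating leukocytes. Genes of the brush border, of the lysosome, of tryptophan breakdown, of detoxification and of mucosal defence are described here, followed by genes of protein synthesis and folding. The lists of these genes were written with earlier results of these data known, so their counts are a description.

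Levels are log2 values of the background-corrected spot signal after quantile normalization between arrays. A log2 FC is the mean of CV fish minus the mean of SC fish, so that a positive value means a higher level in CV fish. A probe was called when 2 conditions held, a Benjamini-Hochberg adjusted p under 0.05 in limma and a log2 FC of 0.4 or more in either direction. Of 14841 probes, 12065 passed the filter on dim spots and were tested. Spots set to missing as dim or uneven numbered 1264 to 2237 per array in CV fish (median 1761.5), against 1619 to 2738 in SC fish (median 2156). Gene names were at hand for 2328 of the tested probes (2057 symbols), taken from the study's annotation of probes that its own tests had selected in at least 1 diet against FM, so that named probes are not a neutral sample of the array. Where a spot was missing its value was imputed, which for genes given below concerned 3 SC fish for FMO5, CLD14 and TCB, 2 SC fish for S15A4 and TVA1, and 1 fish each for MEP1B, S26A5, SAP3, CCL28, KIME, DHCR7, HV102 and HXC8A, with 1 fish of each diet for GIMA7. Enterocyte genes were present in all samples: intestinal fatty acid-binding protein (FABPI) was 13.93 or more in every CV fish and 11.98 or more in every SC fish. No probe of the lists of red blood cell and exocrine pancreas genes had a gene name, so admixture of these tissues was not tested.

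Between CV and SC fish, 1979 probes were called (16.4% of those tested). In CV fish 1630 of them were higher (13.5%) and 349 were lower (2.89%). Among probes with a gene symbol, 833 were called (35.8%), 623 of them higher (26.8%) and 210 lower (9.02%), and these shares are the background for the gene lists below. The median log2 FC over all tested probes was 0.10, and it was −0.01 when arrays were scaled to the 75th percentile of their signals without quantile normalization. With quantile normalization kept, it was −0.02 when done ahead of the dim-spot filter and −0.01 with no such filter. With normexp background correction it was 0.05. The excess of rises depended on the shift of 0.10. With the median taken off, 1672 probes were called, 983 higher (8.15%) and 689 lower (5.71%), so that the share of rises was 58.8% in place of 82.4%, and the background among named probes became 21.1% higher and 16% lower. Scaling to the 75th percentile gave a share of 59.7% and the authors' own normalized values 63.2%. The share was 57.2% with quantile normalization ahead of the dim-spot filter and 58.5% with no such filter. With normexp background correction it was 73.2%. Counts with the median taken off are therefore given beside each list. They lower every log2 FC by the same amount, whereas other scalings changed some dim probes more. The dim TVA1 had a log2 FC of 0.83, 0.72 with the median taken off and 0.54 with arrays scaled to the 75th percentile. For the bright FABPI these values were 1.56, 1.45 and 1.59. Rises of dim genes may therefore stay too large in these counts. The ranges of CV and SC fish did not overlap for 154 probes (1.28%), 150 of them higher and 4 lower in CV fish, and of these 4 only DDX18 had a name. The arrays were scanned on 2 days, 4 fish of each diet on the first and 6 of each on the second. Of the called probes, 1976 of 1979 had the same sign on both days. They were called on the fish of both days together, which favours such agreement, so this count is a description. On the second day alone 1670 were called, while on the first alone 0 were called and 1768 had an unadjusted p under 0.05. The days also differed in number of fish and in histology. CV fish 7, with a histology sum of 7, was among the 4 CV fish of the first day. SC fish 1 and 10, with sums of 1.5, were scanned on the second. Of the 159 genes and unnamed probes given below as called, 10 lost the call with arrays scaled to the 75th percentile (AFMID, BANK1, CYLD, EF1B, FOLR1, GEMI, IGHM, KIME, MBTP1 and NOL6), and 127 stayed called whichever fish was left out.

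Genes of the brush border were higher in CV fish. Of 17 probes for brush border enzymes, 15 were higher and 1 was lower, the same with the median taken off, and their median log2 FC was 1.16. Angiotensin-converting enzyme (ACE), a peptidase of the microvillus membrane, had levels of 10.68 to 13.02 in CV fish (median 12.14), against 7.75 to 10.75 in SC fish (median 9.70). 9 of the 10 CV fish lay above the highest SC fish, and the log2 FC was 2.54 ± 0.30 (SE, adjusted p = 1.83e-08). Meprin A subunit beta (MEP1B), a membrane metalloprotease, ranged over 5.65 to 6.81 in CV fish (median 6.37), against 3.87 to 5.10 in SC fish (median 4.84), so that no fish overlapped (log2 FC 1.74 ± 0.20). The starch-digesting maltase-glucoamylase (MGA) rose by 1.52 ± 0.28. The exception was enteropeptidase (ENTK), which activates trypsinogen. It was 6.09 to 8.39 in CV fish (median 6.73), against 6.08 to 9.42 in SC fish (median 8.30), with wide overlap and a log2 FC of −1.30 ± 0.34 (adjusted p = 0.00396). In whole tissue, fewer cells of a type and less RNA per cell cannot be told apart.

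Transporters moved with the enzymes. Of 35 probes for nutrient and ion transporters, 23 were higher and 3 lower in CV fish (23 and 4 with the median taken off). The largest rise among all named genes was that of S13A2, a sodium-coupled carrier of dicarboxylates such as succinate. Its levels were 8.47 to 11.81 in CV fish (median 10.39), against 5.88 to 8.85 in SC fish (median 7.52), a log2 FC of 2.94 ± 0.51 or 7.67-fold (adjusted p = 1.57e-05). The anion exchanger S26A6 was 7.59 to 8.68 in CV fish, against 4.51 to 7.37 in SC fish, with no overlap (log2 FC 2.06 ± 0.23). Its relative S26A5 rose by 2.28 ± 0.59, and the lysosomal histidine and peptide carrier S15A4 and the hexose carrier GTR8 rose by 1.58 ± 0.23 and 1.45 ± 0.25. With normexp background correction S26A5 and S15A4 were not called. The 3 probes that fell were 2 for the amino acid transporter S38A2 and 1 for the folate receptor FOLR1. S38A2, a carrier of small neutral amino acids that other vertebrates raise when amino acids are scarce, was 11.05 to 12.13 in CV fish and 11.73 to 13.05 in SC fish (log2 FC −0.98 ± 0.18, adjusted p = 5.28e-05). The plot of 12 genes by fish shows these levels beside those of genes described further on.

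**Figure D1:**
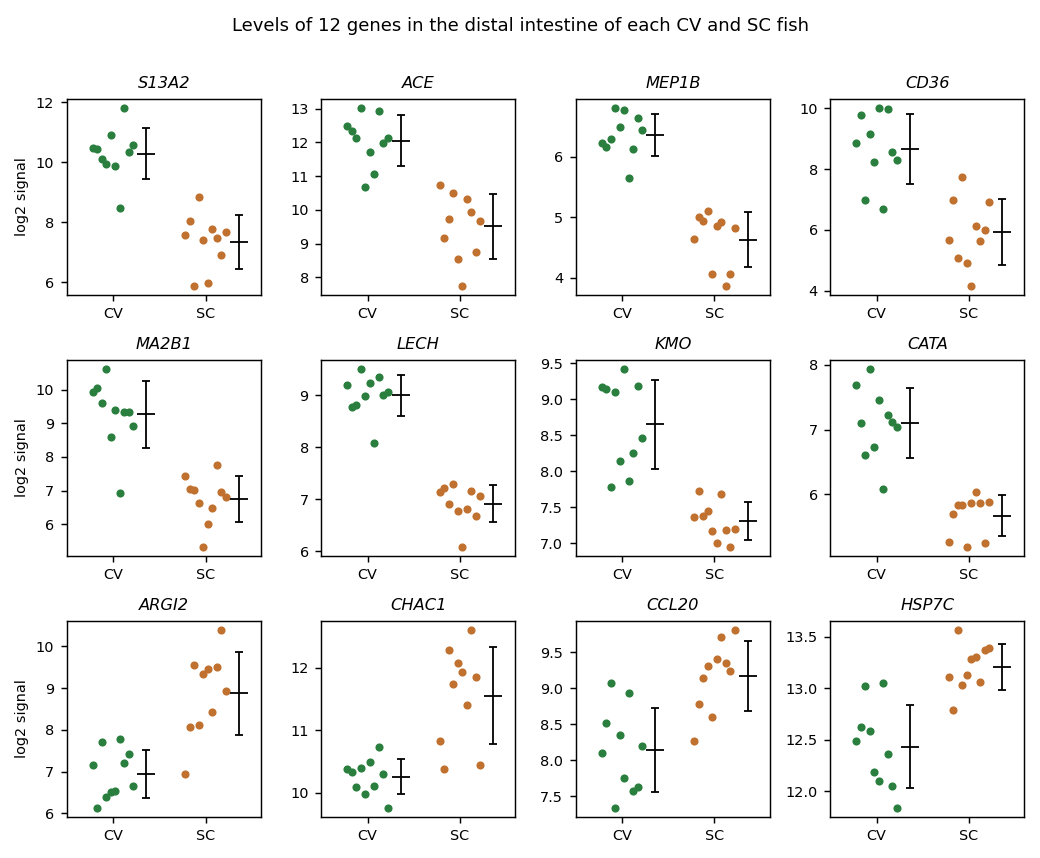
Log2 signal of 12 genes in each of 10 CV (left) and 10 SC fish (right). Each point is a fish, and the bar to the right of the points gives the mean and SD. MEP1B, LECH, KMO and CATA do not overlap between the diets, while ARGI2, CHAC1, CCL20 and HSP7C are lower in CV fish with partial overlap.

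The list of bile acid, sterol and lipid absorption was mixed. Of 24 probes, 10 were higher and 2 lower (9 and 5 with the median taken off). CD36, which binds long-chain fatty acids, was 6.70 to 10.01 in CV fish (median 8.71), against 4.16 to 7.75 in SC fish (median 5.83), a log2 FC of 2.73 ± 0.55 (adjusted p = 0.000166). FABPI, which carries fatty acids within the enterocyte, had a median of 14.66 in CV fish and 13.24 in SC fish (log2 FC 1.56 ± 0.29). Apolipoprotein A-IV (APOA4), a part of the lipoproteins that enterocytes release, rose by 1.71 ± 0.45. MOG2A, which re-forms acylglycerols from absorbed fat, was 9.41 to 10.39 in CV fish, against 8.02 to 9.12 in SC fish, without overlap. The bile acid receptor NR1H4, known as FXR, rose by 0.60 ± 0.12 and the sterol exporter ABCG5 by 0.78 ± 0.15, while the organic anion carrier S22A7 rose by 1.04 ± 0.26. The 2 falls were APOEB, whose call ended on leaving out any of 12 fish (−0.48 to −0.69), and the organic anion exporter MRP3. The call of APOEB was also lost with normexp background correction. Among 18 probes for enteroendocrine and neural genes, 5 were higher and 0 lower (5 and 2 with the median taken off), which is near the background, and the median of the list was 0.06, or −0.13 with arrays scaled to the 75th percentile. The 5 included the gut hormone genes glucagon (GLUC1), protachykinin (TKN1) and cholecystokinin (CCKN). GLUC1 was 10.65 to 13.05 in CV fish, against 10.26 to 11.43 in SC fish (log2 FC 1.12 ± 0.23), and TKN1 and CCKN rose by 1.06 ± 0.15 and 0.95 ± 0.16.

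The highest number of rises was that of lysosomal hydrolases. Of 60 probes, 51 were higher and 2 lower (46 and 2 with the median taken off), with a median log2 FC of 0.77 or, with arrays scaled to the 75th percentile, 0.72. Lysosomal alpha-mannosidase (MA2B1), which trims sugars from glycoproteins, was 6.93 to 10.62 in CV fish (median 9.37), against 5.32 to 7.76 in SC fish (median 6.88). Its log2 FC was 2.52 ± 0.37 (adjusted p = 8.74e-07), and the second probe of the gene was called in the same direction. Beta-galactosidase (BGAL) was 9.62 to 12.47 in CV fish, against 8.71 to 10.12 in SC fish, and all 3 of its probes rose, the highest by 1.73 ± 0.26. The ganglioside activator SAP3 and the peptidase CATC rose by 1.45 ± 0.22 and 1.39 ± 0.22. The 2 falls were 2 of the 3 probes of heparanase (HPSE), which cuts heparan sulfate of the matrix as well as working in lysosomes. HPSE was 7.67 to 10.68 in CV fish (median 8.76), against 8.95 to 10.95 in SC fish (median 10.34), a log2 FC of −1.29 ± 0.36. Of 23 probes for lysosomal membrane and trafficking proteins, 9 were higher and 1 was lower, LTMD1, which is named for a mitochondrial protein domain. With the median taken off these counts were 6 and 1, a share of rises near the background. The call of LTMD1 was lost with normexp background correction. The 9 rises included cubilin (CUBN), a receptor for protein uptake, at 1.18 ± 0.22, and the sorting receptor sortilin (SORT) at 0.84 ± 0.25. Sialin (S17A5), the lysosomal exporter of sialic acid, was 7.86 to 9.70 in CV fish and 7.73 to 10.15 in SC fish (log2 FC 0.20 ± 0.27, adjusted p = 0.631).

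Detoxifying and peroxisomal enzymes were mostly higher in CV fish. Of 27 probes for phase II enzymes, which attach polar groups to foreign compounds, 20 were higher and 0 lower (16 and 1 with the median taken off). An arylamine N-acetyltransferase (ARY1) was 11.84 to 12.86 in CV fish, against 8.61 to 11.54 in SC fish (log2 FC 1.50 ± 0.21), and the glucuronosyltransferases UD12 and UGT3 also did not overlap. UD12 rose by 1.31 ± 0.18, UD2A1 by 1.15 ± 0.17 and UGT3 by 1.05 ± 0.15. Of 24 probes for phase I enzymes, which oxidise or hydrolyse them first, 13 were higher and 2 lower (12 and 3 with the median taken off). The flavin monooxygenase FMO5, the cytochrome P450 CP2CR and the carboxylesterase EST2 rose 2.65-fold, 2.46-fold and 2.27-fold. Calls of FMO5, CP2CR and, among the falls, CP2J6 were lost with normexp background correction. The falls were the cytochromes CP2J2, at −0.91 ± 0.24, and CP2J6, at −0.70, whose call was lost with slide as a block (adjusted p = 0.069) and on leaving out any of 13 fish (−0.59 to −0.77). In the list of fatty acid oxidation and peroxisome genes 20 of 23 probes were higher and 0 lower (17 and 0 with the median taken off). Catalase (CATA), which breaks down hydrogen peroxide in peroxisomes, was 6.09 to 7.94 in CV fish, against 5.18 to 6.03 in SC fish (log2 FC 1.43 ± 0.21, adjusted p = 6.58e-07). The oxidases HAOX2 and OXDA rose by 1.43 ± 0.18 and 1.19 ± 0.15, and the electron carrier ETFA by 1.14 ± 0.29.

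Among 29 probes for glutathione and antioxidant defence, 13 were higher and 1 lower (13 and 4 with the median taken off). GPX4, which reduces lipid peroxides within membranes, was 4.61 to 7.46 in CV fish (median 6.30), against 3.40 to 5.09 in SC fish (median 4.12), a log2 FC of 2.14 ± 0.26. Heme oxygenase (HMOX), which opens the heme ring and frees its iron, was 9.56 to 11.74 in CV fish and 8.70 to 9.84 in SC fish (log2 FC 1.48 ± 0.27). Of 15 probes for heme and iron handling, 7 were higher and 0 lower (6 and 1 with the median taken off). They included the iron importer NRAM2 at 1.07 ± 0.19, NCOA4, which brings ferritin to the lysosome in mammals, at 1.06 ± 0.16 without overlap, and the middle ferritin subunit FRIM at 0.65 ± 0.12. The single fall in the antioxidant list was CHAC1, an enzyme that degrades glutathione.

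Enzymes of the kynurenine route, by which most tryptophan is broken down, were higher in CV fish. Of 19 probes in the list of kynurenine and tryptophan metabolism, 14 were higher and 1 lower (12 and 1 with the median taken off). Kynurenine 3-monooxygenase (KMO) was 7.79 to 9.42 in CV fish (median 8.78), against 6.95 to 7.73 in SC fish (median 7.28), without overlap (log2 FC 1.34 ± 0.19, adjusted p = 5.94e-07). Indoleamine 2,3-dioxygenase 2 (I23O2), which opens the indole ring, was 4.36 to 7.31 in CV fish, against 3.39 to 4.86 in SC fish (log2 FC 1.48 ± 0.31), with 3 of the 10 SC values imputed. Kynureninase (KYNU) and arylformamidase (AFMID) rose by 0.94 ± 0.18 and 0.44 ± 0.10. The call of AFMID was lost with arrays scaled to the 75th percentile (0.39), and those of I23O2, KYNU and AFMID were lost with normexp background correction. TPH1, which starts serotonin synthesis from the same amino acid, was 3.30 to 6.19 in CV fish and 4.86 to 6.17 in SC fish (log2 FC −0.40 ± 0.31, adjusted p = 0.367). The 1 fall was a probe of the fatty aldehyde dehydrogenase AL3A2 (−1.41 ± 0.51), while the other 2 probes of this gene gave 0.09 each.

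The list of amino acid, arginine and polyamine metabolism was split, with 17 of 41 probes higher and 5 lower (15 and 11 with the median taken off). MMSA, which degrades valine, rose by 1.39 ± 0.17. Mitochondrial arginase-2 (ARGI2), which splits arginine into ornithine and urea, was 6.13 to 7.79 in CV fish (median 6.90), against 6.95 to 10.40 in SC fish (median 9.13). Its log2 FC was −1.93 ± 0.32 (adjusted p = 6.41e-06), the largest fall of a named gene outside the sets of co-varying probes described below. D-3-phosphoglycerate dehydrogenase (SERA), the entry enzyme of serine synthesis, was 9.27 to 10.47 in CV fish, against 10.21 to 12.31 in SC fish (log2 FC −1.23 ± 0.19). The other 3 falls were SERB, which completes serine synthesis, DCAM of polyamine synthesis and GNMT. CHAC1 was 9.76 to 10.73 in CV fish (median 10.31), against 10.37 to 12.61 in SC fish (median 11.79), a log2 FC of −1.30 ± 0.18 (adjusted p = 3.22e-07). CHAC1, SERA, S38A2 and several tRNA synthetases belong to the genes that mammalian cells raise through ATF4 when amino acids run short. A part of ATF4 in these differences was not tested. In the list of endoplasmic reticulum folding 4 of 37 probes were higher and 4 lower (3 and 5 with the median taken off). ATF4, at −0.42, was among the falls, with CHAC1, SDF2L and MANF, while SC16A, HYOU1, GLU2B and MBTP1 rose. The call of ATF4 ended on leaving out any of 6 fish (−0.35 to −0.49). With normexp background correction ATF4, SC16A, MBTP1, SERB and GNMT were not called.

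Lists of protein synthesis and of cytosolic chaperones held more falls than rises in CV fish. Of 22 probes for aminoacyl-tRNA synthetases, which load amino acids onto tRNA, 12 were lower and 1 higher (15 and 1 with the median taken off), with a median log2 FC of −0.48. The synthetase for cysteine, SYCC, was 10.50 to 11.65 in CV fish, against 11.08 to 12.17 in SC fish (log2 FC −0.74 ± 0.14), and those for tryptophan and arginine, SYWC and SYRC, fell by 0.73 ± 0.12 and 0.64 ± 0.11. The probable threonine synthetase SYTC2 rose by 0.68 ± 0.13, a call that was lost with normexp background correction. Of 36 probes for cytosolic chaperones 0 were higher and 12 lower (0 and 19 with the median taken off). HSP7C, a constitutive heat shock protein that helps new proteins fold, was 11.84 to 13.05 in CV fish, against 12.79 to 13.57 in SC fish, and 8 of the 10 CV fish lay below the lowest SC fish (log2 FC −0.77 ± 0.14, adjusted p = 4.54e-05). HS90B fell by 0.81 ± 0.20 and TCPE, a subunit of the chaperonin that folds actin and tubulin, by 0.62 ± 0.15. The probe of HSP70 also fell by 0.77 ± 0.14, and whether it reads another transcript than the probes of HSP7C is not known here.

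Of 52 probes for ribosome biogenesis, 2 were higher, both of NOL6, and 13 were lower. This list depended on the scaling: with the median taken off 0 were higher and 33 lower. Nucleolin (NUCL), NOP56 and CEBPZ, proteins of the nucleolus, fell by 0.55 ± 0.15, 0.49 ± 0.16 and 0.58 ± 0.18. The helicase DDX18 was the single named gene that was lower in CV fish without overlap, with a log2 FC of −0.42 (mean 11.23 in CV fish and 11.65 in SC fish), a call that was lost without CV fish 8 or SC fish 6 (−0.39 to −0.45). Of 27 probes for translation factors 0 were higher and 4 lower (0 and 11 with the median taken off). Both probes of IF2B, a subunit of the factor that brings the first tRNA, fell, and the stronger was 7.56 to 8.74 in CV fish and 8.17 to 10.03 in SC fish (log2 FC −1.10 ± 0.21). The other 2 were the elongation factors EF2 and EF1B. Of 25 proteasome and ubiquitin probes 2 were higher, RD23B and UBA1, and 0 lower (2 and 6 with the median taken off). Of 49 cell cycle probes 3 were higher, TOP2A, CCND1 and GEMI, and 3 lower, PSF3, CCNB1 and PAF. With the median taken off 1 was higher and 5 were lower, and CCND1 and GEMI were not called. The call of PAF was lost with slide as a block. With normexp background correction the calls of NOL6, CEBPZ, RD23B, UBA1, TOP2A, CCND1 and GEMI were lost. The plot of called probes by list sets these lists under those of the brush border and the lysosome.

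**Figure D2:**
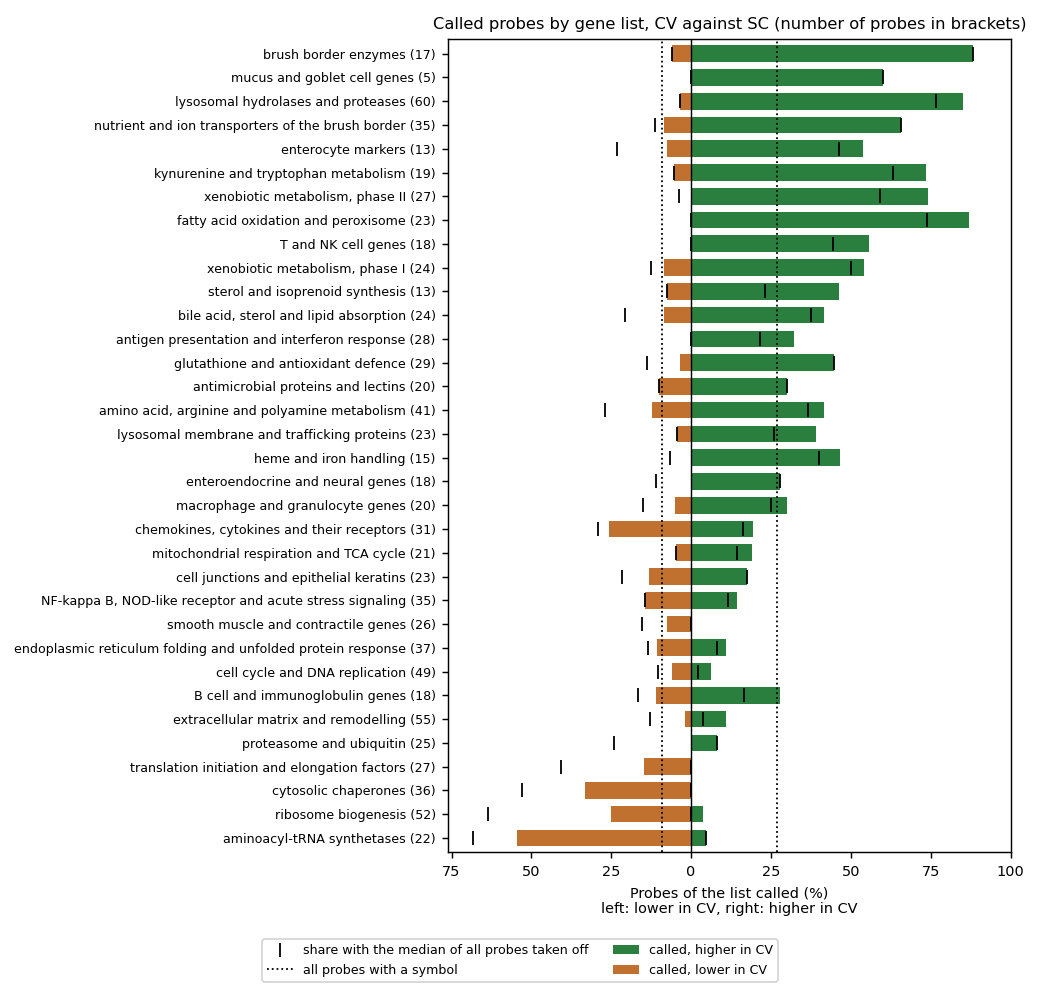
Share of probes called between CV and SC fish in each gene list, with rises in CV fish to the right and falls to the left (in %, number of probes in brackets). Ticks give the shares once the median shift was taken off, and dotted lines the shares among all probes with a symbol (26.8% higher and 9.02% lower). Brush border enzymes and lysosomal hydrolases lie far to the right of the line, and tRNA synthetases, ribosome biogenesis and chaperones to its left.

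Immune genes moved in both directions. Of 31 probes for chemokines, cytokines and their receptors, 6 were higher and 8 lower (5 and 9 with the median taken off). CCL20, which attracts leukocytes bearing CCR6 to the mucosa, was 7.33 to 9.07 in CV fish, against 8.27 to 9.81 in SC fish (log2 FC −1.02 ± 0.24, 2 of its 3 probes). The interferon-induced chemokine CXCL9 was 6.33 to 8.06 in CV fish and 7.50 to 8.77 in SC fish (log2 FC −1.16 ± 0.26). CCL19 fell by 1.09 ± 0.37, a call that was lost without CV fish 4 or without SC fish 6 (−0.84 to −1.32 over all fish left out in turn). All 3 probes of CCL21, which guides T cells and dendritic cells, rose, the highest by 0.98 ± 0.16, with 11.28 to 12.64 in CV fish and 10.40 to 11.45 in SC fish. The level of CCL28 was 4.53 to 6.95 in CV fish and 4.26 to 6.56 in SC fish (log2 FC 0.04 ± 0.33, adjusted p = 0.949). Among 18 probes for T and NK cell genes 10 were higher and 0 lower (8 and 0 with the median taken off). With arrays scaled to the 75th percentile 6 were higher and 0 lower, and the median log2 FC of the list was 0.30 in place of 0.57. The T cell GTPase GIMA7 was 5.40 to 7.88 in CV fish, against 3.83 to 6.81 in SC fish (log2 FC 1.62 ± 0.44). The T cell receptor chains TCB and TVA1 rose by 0.97 ± 0.25 and 0.83 ± 0.21, and their calls were lost with normexp background correction. Their medians in SC fish were low, at 3.52 and 3.74. Of 3 probes of TCB, 2 were called higher in CV fish, and the other, at 0.04, was not called. Another probe of TVA1 gave 0.39 and was not called.

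In the list of B cell and immunoglobulin genes 5 of 18 probes were higher and 2 lower (3 and 3 with the median taken off), shares near the background. KV15, BLNK, IGHM and BANK1 were among those that rose, but IGHM and BANK1 were not called with the median taken off or with arrays scaled to the 75th percentile (0.34 and 0.28). The falls were the immunoglobulin chain HV102, at −0.85 ± 0.26, and PIGR, which carries antibodies across the epithelium and whose call ended on leaving out any of 9 fish (−0.56 to −0.77). With normexp background correction KV15, IGHM, BANK1, HV102 and PIGR were not called. Of 20 macrophage and granulocyte probes 6 were higher and 1, NCF4, was lower (5 and 3 with the median taken off), again near the background. A mannose receptor (MRC2) was 9.87 to 14.34 in CV fish, against 8.26 to 10.44 in SC fish (log2 FC 2.21 ± 0.43), but the other 2 probes of this symbol gave −0.07 and −0.36. Of 28 probes for antigen presentation and interferon response 9 were higher, among them the class I chain HA1F at 0.72 ± 0.17, and 0 lower (6 and 0 with the median taken off), a share near the background. Of 35 probes for NF-kappa B, NOD-like receptor and stress signaling 5 were higher and 5 lower (4 and 5 with the median taken off). HMOX, CYLD, TNAP3 and TRAF4 were among those that rose. RIPK3, a kinase of necroptosis, fell by 0.82 ± 0.20 and the transcription factor CEBPB by 0.64 ± 0.13, with 9 of the 10 CV fish below the lowest SC fish for CEBPB, and HSP70, JUN and ICAM1 also fell. The call of JUN was lost with slide as a block (adjusted p = 0.0545) and on leaving out any of 9 fish (−0.52 to −0.66). Calls of NCF4, RIPK3, CYLD, TRAF4 and ICAM1 were lost with normexp background correction.

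Lectins and mucus genes differed gene by gene. Of 20 probes for antimicrobial proteins and lectins, 6 were higher and 2, MBL2 and PIGR, were lower (6 and 2 with the median taken off). These shares are near the background. A hepatic lectin (LECH) was 8.09 to 9.51 in CV fish (median 9.03), against 6.08 to 7.30 in SC fish (median 6.98). It did not overlap, and its log2 FC was 2.09 ± 0.20 (adjusted p = 9.06e-11). Lysozyme g (LYG), which cleaves bacterial cell walls, was 11.62 to 12.43 in CV fish and 10.30 to 11.45 in SC fish (log2 FC 0.91 ± 0.13), while lysozyme C (LYSC2) gave 0.20 ± 0.17 (adjusted p = 0.431). The lactose-binding lectin AJL2 rose by 0.93 ± 0.21. A probe of the mannose-binding MBL2 fell by 0.61 ± 0.17, but its other probe gave 0.34. The intelectins, lectins that bind microbial sugars, were not called: ITL1A gave 0.53 ± 0.24 (adjusted p = 0.0919) and INTLP 0.08 ± 0.20 (adjusted p = 0.797). Without SC fish 1 and 10, whose histology scores were low, ITL1A was called, at 0.67, and with CV fish 7 left out as well it was not (0.66, adjusted p = 0.0523). Of 5 mucus and goblet cell probes 3 were higher, also with the median taken off. FCGBP, a large protein of intestinal mucus, was 10.43 to 13.20 in CV fish (median 12.03), against 7.70 to 12.02 in SC fish (median 9.57), with a log2 FC of 2.30 ± 0.45 (adjusted p = 0.000121). The other 2 were ZG16 at 0.87 ± 0.22 and AGR3 at 0.56 ± 0.13. Calls of ZG16 and AGR3 were lost with normexp background correction.

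Genes of cell junctions went both ways as well, with 4 of 23 probes higher and 3 lower (4 and 5 with the median taken off). The tight junction genes CLD14, CLD15 and MALD2 rose by 1.17 ± 0.23, 0.59 ± 0.11 and 0.94 ± 0.15, and MALD2, which seals junctions where 3 cells meet, was 5.99 to 6.64 in CV fish, against 4.89 to 5.73 in SC fish. A probe of keratin K1C13 rose by 1.88 ± 0.25 without overlap, while the other 2 probes of this symbol gave −0.33 and 0.02. CLD18, cingulin (CING) and keratin K1C18 fell, the first by 1.64 ± 0.57, CING by 0.57 ± 0.18 and K1C18 by 0.46 ± 0.18. The fall of K1C18 lay at the threshold (adjusted p = 0.0499) and was lost on leaving out any of 14 fish (−0.35 to −0.57). With normexp background correction the calls of CLD14, MALD2 and CING were lost. CADH2, a cadherin, gave 0.61 ± 0.25 (adjusted p = 0.0652). The aquaporins were not called, with 0.52 ± 0.25 for AQP1, 0.18 ± 0.09 for AQP4 and −0.18 ± 0.31 for AQPA.

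Marker lists of cell types differed from one another, and their part in the results was not tested. The median log2 FC was 0.71 for enterocyte probes and 0.57 for T and NK cell probes. It was 0.008 for macrophage and granulocyte probes, −0.145 for B cell probes and −0.121 for smooth muscle probes. The summed linear signal of 13 enterocyte probes, of which 7 were higher and 1 lower (6 and 3 with the median taken off), was 169200 to 351700 in CV fish (median 257600), against 139300 to 210800 in SC fish (median 172500). For 20 macrophage and granulocyte probes the sum was 34020 to 69800 in CV fish and 25250 to 33320 in SC fish. For 18 T and NK cell probes it was 7253 to 10050 in CV fish, against 5788 to 9416 in SC fish. For 18 B cell probes it was 2225 to 4053 in CV fish and 2069 to 4018 in SC fish. The 26 smooth muscle probes summed to 75710 to 122000 in CV fish and 92760 to 123500 in SC fish, with 0 higher and 2 lower (0 and 4 with the median taken off), PDLI1 and PARVA. The call of PARVA ended on leaving out any of 12 fish (−0.41 to −0.56). The sums overlapped between the diets except for macrophage and granulocyte genes, a list that also holds NRAM2, a gene of iron uptake in enterocytes.

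The largest rises outside the lists were a pair of regulators and a few genes without a clear gut role. F264, an enzyme that sets fructose 2,6-bisphosphate and with it glycolysis, was 9.12 to 12.41 in CV fish (median 11.07), against 8.01 to 9.38 in SC fish (median 8.48), a log2 FC of 2.46 ± 0.32 (adjusted p = 1.11e-07). BHE41, a repressor of the circadian clock, was 9.11 to 11.36 in CV fish and 8.17 to 9.38 in SC fish (log2 FC 1.94 ± 0.24). RGRF1, an activator of Ras, rose by 1.97 ± 0.32 without overlap, with 3 of the 10 SC values imputed. A type-2 ice-structuring protein (ISP2), of the C-type lectin family, was 6.14 to 10.96 in CV fish, against 4.07 to 6.67 in SC fish. Its log2 FC was 2.24 ± 0.47 over all fish, 0.69 among fish scanned on the first day and 3.27 among those of the second, and MRC2 split likewise, at 0.70 and 3.22.

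The largest falls came mostly from 2 sets of probes that moved together across fish. Of the 14 largest falls of named genes, 12 belonged to them, the others being ARGI2 and the complement-like C1QL2 (−1.54 ± 0.43). Another probe of C1QL2 gave −0.42 and was not called. The sets were formed after the levels were seen, as the probes that correlated above 0.8 with dystonin (DYST) or with latrophilin (LPHN) over all 57 arrays, and they are a description with no test. The DYST set held 37 probes, 15 of them with a symbol and 23 called lower, and the LPHN set held 43, 15 of them with a symbol and 28 called lower. They shared 0 probes. Together they made up 51 of the 349 falls and 43 of the 79 falls of at least 1.

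DYST, a linker of the cytoskeleton, was 9.25 to 12.67 in CV fish (median 10.66), against 10.65 to 15.40 in SC fish (median 12.81), a log2 FC of −2.14 ± 0.65 (adjusted p = 0.0118). The mean of its set was highest in SC fish 4, 1 and 5 (10.37, 9.38 and 9.28), while the other 7 SC fish lay between 6.55 and 7.91 and the CV fish between 5.92 and 7.74. The mean of FM fish, 7.94, was close to that of SC fish, 8.02, beside 7.42 in SBM fish and 6.64 in CV fish. Single FM fish ranged from 5.75 to 9.92, and FM fish 4, 5, 6 and 7 lay at 9.92, 9.57, 9.03 and 9.25. Besides DYST the set held TRI29, RAI14, EXOS2, HXC8A, TRI55, MARH4, CLD18 and the probe of AL3A2 that disagrees with the other 2. Their known roles are unlike: TRI29, TRI55 and MARH4 belong to families of ubiquitin ligases, EXOS2 to the RNA exosome, HXC8A to the homeobox factors and CLD18 to the tight junction. The calls of EXOS2 and MARH4 were lost on leaving out SC fish 1, 4 or 5, and that of TRI29 on leaving out SC fish 4. Those of CLD18, RAI14, HXC8A, AL3A2 and TRI55 were lost without any of 4, 5, 6, 8 and 14 fish in this order, SC fish 1, 4 and 5 among them each time, with log2 FCs between −1.13 for AL3A2 and −2.19 for TRI29 over all fish left out in turn. LPHN, an adhesion receptor, was 6.27 to 10.09 in CV fish (median 7.20), against 5.02 to 13.96 in SC fish (median 11.44), a log2 FC of −2.87 ± 0.73 (adjusted p = 0.00278). The mean of its set was 6.62 to 8.53 in CV fish. In SC fish it was 8.70 to 10.22 in fish 1 to 7, 7.91 in fish 8 and 6.66 and 6.25 in fish 9 and 10. Fish 9 thus lay below 9 of the 10 CV fish, and fish 10 below all of them. By diet the mean of the LPHN set was 7.416 in CV and 8.525 in SC fish, beside 7.634 in FM and 8.751 in SBM fish. This set held a retroviral envelope gene (ENV, −1.95 ± 0.59), the replication factor PSF3 (−1.44 ± 0.35), the RNA polymerase I factor RRN3 (−1.03 ± 0.35) and single probes of CTBP2 (−2.16 ± 0.58) and F263 (−2.38 ± 0.50). The other probes of CTBP2 and F263 gave −0.11 and −0.25 and were not called. The call of RRN3 was lost on leaving out CV fish 4 or SC fish 2, 5 or 6 (−0.82 to −1.28). With fish number as a block on CV and SC arrays only, the calls of LPHN, CTBP2, ENV and RRN3 were lost. That of TRI55 in the DYST set was lost with normexp background correction. With SC fish 9 and 10 left out, 333 probes fell and 1748 rose.

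**Figure D3:**
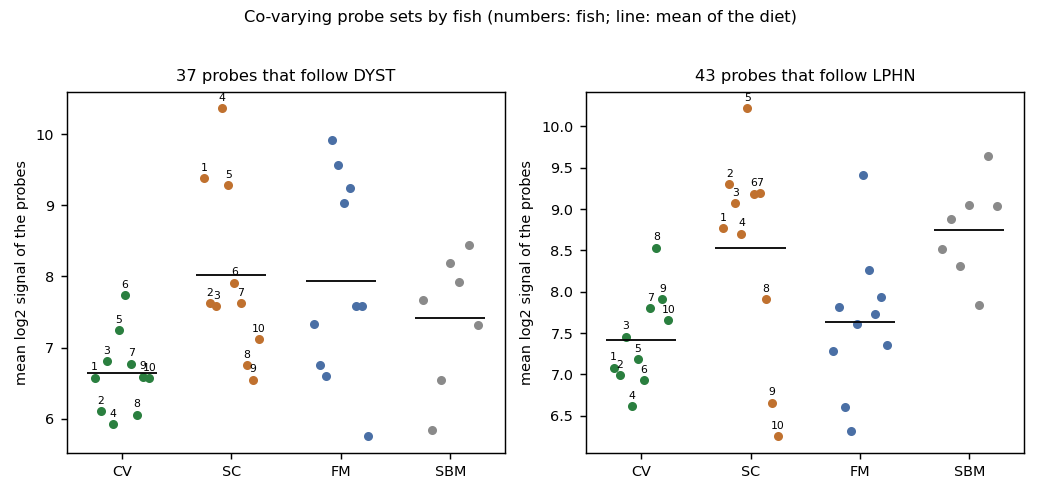
Mean log2 signal of the 37 probes that follow DYST and of the 43 that follow LPHN, in each CV, SC, FM and SBM fish (numbers are fish, lines are means of the diet). SC fish 1, 4 and 5 and some FM fish are high in the first set, and SC fish 9 and 10 are low in the second.

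The same probes were set beside the contrast of the control diets, FM minus SBM, which shares no array with CV minus SC. Over the 12065 probes the 2 contrasts correlated with r = 0.557 (0.539 with arrays scaled to the 75th percentile), a description across probes that are not independent. Of the called probes, 1566 had the same sign in both contrasts (79.1%), against 59.6% of all probes. The probes called in both contrasts numbered 874, of which 846 went in the same direction, and they are 44.2% of the CV and SC calls and 29.1% of the 3001 calls between FM and SBM (24.9% of probes). S13A2 had means of 10.29 in CV fish and 7.35 in SC fish, beside 10.06 in FM fish and 7.99 in SBM fish, and ACE 12.05 and 9.51, beside 12.46 and 9.95. Of 49 cell cycle probes, 3 were lower in CV than in SC fish (5 with the median taken off). In FM against SBM fish 37 of them were lower. Of 36 chaperone probes, 12 were lower in CV than in SC fish (19 with the median taken off). In FM against SBM fish 32 of them were lower. The share of falls among probes with a symbol was 9.02% between CV and SC fish (16% with the median taken off). It was 43.4% between FM and SBM fish. Over all probes, 1080 were called higher and 1921 lower in FM than in SBM fish. No median was taken off in these FM and SBM counts, so the 2 contrasts are not on the same footing. Symbols came from probes that the study had selected against FM, a choice that favours FM and SBM calls in the lists here and below. Whether these lists differ between the contrasts was not tested.

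The difference of the 2 contrasts was tested in the same limma model, an addition made after the data were seen. It was called for 1562 probes (12.9%), of which 1392 were positive and 673 were also called with arrays scaled to the 75th percentile. The median log2 FC of CV minus SC was 0.10 here and −0.01 with that scaling. How far the excess of positive differences depends on this shift was not tested. In the list of sterol synthesis, 6 of 13 probes were higher and 1, STAR5, was lower in CV than in SC fish. With the median taken off the counts were 3 and 1, a share of rises near the background of 21.1%. In FM against SBM fish 0 were higher and 11 lower. Squalene monooxygenase (ERG1) was 7.25 to 8.36 in CV fish (median 7.84) and 6.32 to 7.67 in SC fish (median 7.25), beside a median of 6.80 in FM fish and 7.94 in SBM fish. Its contrasts differed by 1.57 ± 0.27 (adjusted p = 0.00038), and those of DHCR7, mevalonate kinase (KIME) and CP51A, enzymes of the same route to cholesterol, by 1.43, 1.42 and 0.98. With arrays scaled to the 75th percentile the 4 differences were 1.22, 0.96, 0.76 and 0.64, and that of CP51A was not called (adjusted p = 0.0571). Between CV and SC fish these genes had log2 FCs of 0.65 ± 0.18, 1.04 ± 0.23, 0.66 ± 0.21 and 0.67 ± 0.18 in the same order. KIME was not called with arrays scaled to the 75th percentile or without SC fish 5 (0.54). The 4 genes and STAR5 were not called with normexp. TXNIP, which binds thioredoxin and restrains glucose uptake, was 7.73 to 9.73 in CV fish (median 8.83) and 6.88 to 7.86 in SC fish (median 7.39), beside medians of 7.75 in FM and 7.63 in SBM fish. The median of CV fish was the highest of these 4 diets, and the contrasts differed by 1.26 ± 0.32 (adjusted p = 0.0079). For CHAC1 the median was 10.31 in CV fish and 11.79 in SC fish, the highest of the 4, beside 10.21 in FM and 10.11 in SBM fish (difference of the contrasts −1.21 ± 0.27, adjusted p = 0.0034). SERA had means of 9.91 in CV and 11.14 in SC fish, beside 9.45 in FM and 9.95 in SBM fish, though its difference was not called (adjusted p = 0.073, and 0.0301 with arrays scaled to the 75th percentile). The plot of both contrasts places these genes.

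**Figure D4:**
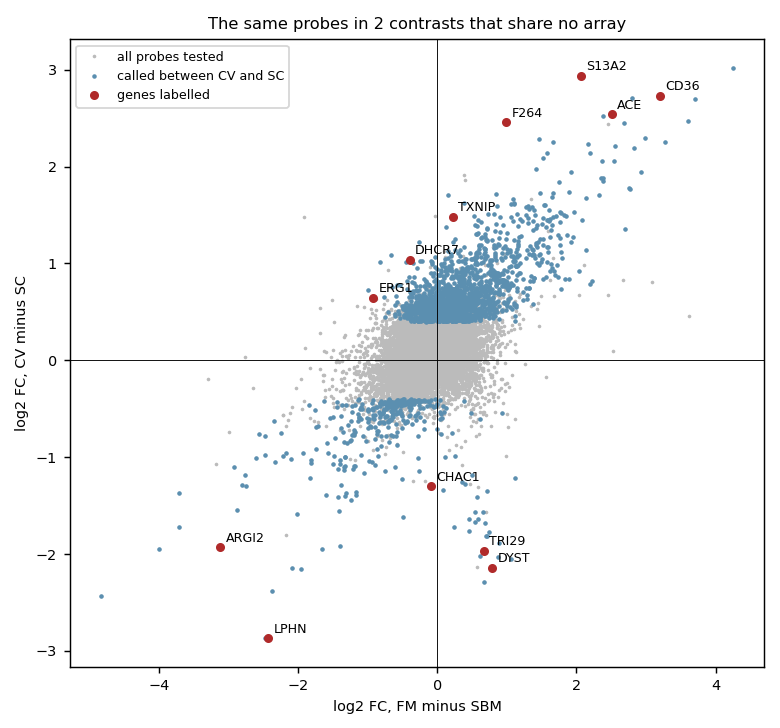
Log2 FC of each of 12065 probes for CV minus SC (vertical) against FM minus SBM (horizontal), with probes called between CV and SC in blue and labelled genes in red. S13A2, ACE and CD36 lie along the diagonal, TXNIP and CHAC1 near the vertical axis, and DYST and TRI29 fall in CV fish but not in FM fish.

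Each fish was placed on the line between the mean SC profile (0) and the mean CV profile (1), over probes called without that fish. CV fish lay at 0.505 to 1.389 (median 0.932) and SC fish at −0.340 to 0.390 (median 0.136). Among CV fish the lowest was fish 7, the fish with a histology sum of 7, and the highest was fish 4. SC fish 10, with a histology sum of 1.5, lay at 0.373, and SC fish 1, with the same sum, at 0.0820, whereas the highest SC fish, fish 8, had a sum of 7. FM and SBM fish were not in the contrast that chose the probes, though their arrays entered the filter and the shared spread. FM fish lay at 0.742 to 1.177 and SBM fish at 0.0236 to 0.412. Since the diets differ on these probes by choice, the gap between CV and SC fish is no finding. Without CV fish 7 the number of called probes was 2083, without SC fish 1 and 10 it was 1850, and without all 3 it was 1975.

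**Figure D5:**
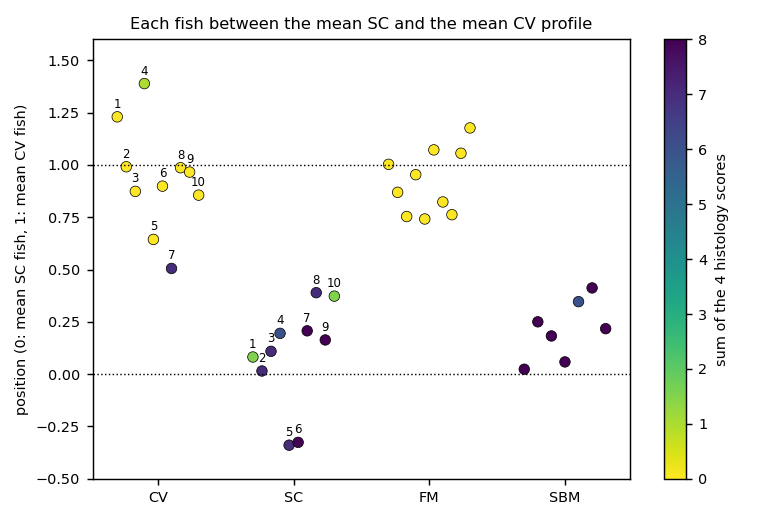
Position of each fish between the mean SC profile (0) and the mean CV profile (1), coloured by the sum of its 4 histology scores. CV fish 7, at 0.505, is the lowest CV fish and has a sum of 7, and FM fish lie at the level of CV fish.

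Among called probes without a gene name, the largest rises were Ssa_GRASP209733777 and Ssa_S18862026. The first was 8.19 to 12.96 in CV fish, against 4.54 to 9.77 in SC fish (log2 FC 3.02 ± 0.73, with 1 SC value imputed), and the second rose by 2.71 ± 0.75. Both were larger on the second scan day (4.01 and 3.52) than on the first (1.53 and 1.49). The largest falls were Ssa_GRASP209153991, at −2.86 ± 0.77 and part of the LPHN set, and Ssa_S47729315. The last was 6.76 to 9.30 in CV fish, against 8.62 to 11.82 in SC fish (log2 FC −2.44 ± 0.41), and 8 of the 10 CV fish lay below the lowest SC fish. It is not known here which genes these probes measure.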

How the data were processed

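RNA from the distal intestine of each fish was labelled with Cy3 and hybridised to a one-colour Agilent salmonid array. Per the file headers, spot intensities were extracted and background-corrected with Agilent Feature Extraction 10.7.1.1 and deposited without normalization between arrays. The authors also deposited a table of log2 values, quantile normalized and imputed, which served as an alternative. Following the study's methods, 536 control spots were removed and spots that Feature Extraction flagged as dim or non-uniform became missing values. Quantile normalization and the log2 scale came next. A probe was dropped when over 15% of its arrays were missing, and the 0.617% of values still missing were imputed from the 10 nearest probes. A limma 3.58.1 model (R 4.3.3) was fitted to all 57 arrays with 6 diets, whose fish share an estimate of the spread, and CV minus SC was tested with Benjamini-Hochberg adjustment over 12065 probes. The fit was tested on simulated data. The number of arrays limits the precision.

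Groups follow the letters in the titles. Letters were set to diets from the choice of members given for this comparison, with the study's histology scores and group sizes beside it. Group size does not tell CV from SC fish. The study found histology of neither the CV nor the Candida utilis diet statistically different from FM, so scores alone may not tell these diets apart. Members, lists and named genes were chosen with earlier results of these data known. The text names the 14 largest rises and falls among probes with 1 symbol that were called under both scalings, up to 4 called members per list, every member of small counts, and genes singled out in the study. A symbol with several probes is given by the probe of largest change. From the lists, 9 probes were dropped because their annotated name was another gene. Symbols come from the study's annotation. Alternatives changed the scaling, background correction, filter, imputation, model and fish left out. Normexp used the median spot signal in place of the mean signal. Sequences of the probes were not used here. Some genes are not reported here. The authors' tables of fold changes were not used. All arrays belonged to a fish of the series (0 columns were left aside).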

Additional observations from a re-analysis of the deposited data

Results flagged for a closer look

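Some fish lay far from the others of their diet, which chance alone does for about 1 in 20 groups at the limit used. The limit was applied to 169 genes and unnamed probes, in CV and in SC fish. The flags below are no more than chance alone gives at that rate. CV fish 7, the CV fish with a high histology sum, was far below the other CV fish for LECH (8.086) and BHE41 (9.108). SC fish 6 was far below the other SC fish for LECH (6.084), the acetyltransferase ARY1 (8.609), the oxidase HAOX2 (8.044), the intelectin INTLP (12.99) and selenoprotein SELPA (8.613). SC fish 1, with a low histology sum, was far below the others for HV102 (3.459) and RIPK3 (4.593). SC fish 8 was low for TOP2A (7.433), SC fish 7 for PARVA (9.259) and CV fish 5 for MRP3 (9.829). All are log2 levels.

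For a number of genes the difference between CV and SC fish was not the difference between FM and SBM fish, by limma's test of the 2 contrasts. The value given is CV minus SC less FM minus SBM, on the log2 scale. It was 1.567 for ERG1, 1.433 for DHCR7, 1.423 for KIME and 0.9772 for CP51A, the sterol genes. Among genes higher in CV than in SC fish it was 1.473 for F264, 1.256 for TXNIP, 0.9415 for KYNU, 0.8638 for CYLD and 0.8105 for MALD2, and −0.6596 for NOL6. Genes lower in CV than in SC fish, and lower still in FM against SBM fish, gave 1.513 for HPSE, 1.444 for ENTK, 1.071 for CCL20, 0.908 for JUN and 2.386 for the unnamed probe Ssa_S47729315. It was −1.212 for CHAC1 and −0.4764 for AQP4, which was not called between CV and SC fish. Among genes of the DYST set it was −2.933 for DYST, −2.771 for RAI14, −2.633 for TRI29 and −2.52 for EXOS2. The mean of this set was high in FM fish 4, 5, 6 and 7 and in SC fish 1, 4 and 5, and lower in the other fish of these diets. With arrays scaled to the 75th percentile the differences of F264, KYNU, CYLD, MALD2, HPSE, ENTK, CCL20, JUN, CP51A and AQP4 were not called, and those of KYNU, MALD2 and CYLD were 0.43, 0.32 and 0.32.

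Among the 2776 probes kept out of the test as dim, 2 were detected in at least 9 CV fish and at most 1 SC fish, and 0 in at least 9 SC fish and at most 1 CV fish. Ssa_CV428946 and Ssa_S18892504 were each detected in 10 of 10 CV fish and 1 of 10 SC fish. Their levels in CV fish were at least 1.605-fold and at least 1.946-fold higher, set against the lowest signal counted as detected.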

How the results depend on the processing

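The direction of the 159 genes and unnamed probes given as called was reversed by 0 of the alternatives that gave a value for them. The alternatives use arrays that also made the calls, which favours such agreement. With 0 missing arrays allowed, 145 of the 169 examined had a value. The number of probes called lay within 1.5 times the reported 1979, with 3 exceptions. It was 1000 with normexp background correction, 331 with a limit of 1 on the log2 FC and 0 among the fish of the first scan day, where 0 list members were called as well. Leaving out each fish in turn gave 1641 to 2158. The median log2 FC of all probes was −0.01241 with 75th percentile scaling, −0.01749 with quantile normalization ahead of the dim-spot filter, −0.01064 with no such filter, 0.005319 in the authors' deposited values and −0.004907 with the median taken off. Of the 159 called, 46 lost the call with normexp, 10 with 75th percentile scaling, 9 with the median taken off, 12 with no filter on dim spots and 40 on the second scan day alone. The cause was not tested. Leaving out any of 14 fish ended the call of K1C18 and TRI55, 13 that of CP2J6, 12 APOEB and PARVA, 9 JUN and PIGR, 8 AL3A2, 7 BANK1, 6 ATF4, EF1B, HXC8A and IGHM, 5 CCNB1, ICAM1, LTMD1, PAF, RAI14 and SERB, and 1 to 4 fish CCL19, CLD18, DDX18, EF2, EXOS2, FOLR1, GEMI, KIME, MARH4, NCF4, NOL6, RRN3 and TRI29.

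The fish numbers are shared by the diets, but the deviations of fish with the same number correlated between −0.0893 and 0.321, not all above 0.1, and no label says that a number marks a shared batch, so fish were not paired by number. CV and SC fish of 9 of the 10 numbers nevertheless lay on the same slide. With the replicate block 2014 probes were called (2067 with CV and SC arrays only). Among the 159 the replicate block over all arrays ended the calls of K1C18 and CP2J6 and no other. In FM and SBM fish, however, a number lay on another slide than in CV and SC fish. The replicate block with CV and SC arrays only ended 10 calls. These were CCL19, CTBP2, ENV, HV102, K1C18, LPHN, PIGR, RRN3, SERB and the unnamed probe Ssa_GRASP209153991. Slide as a block gave 2096 probes and ended the calls of CP2J6, JUN, K1C18 and PAF, while CADH2 became called. CV and SC arrays alone gave 2076 and ended the calls of APOEB, CCL19, ENV, FOLR1, K1C18, PARVA and RRN3.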
